A study of Trichoderma reesei with 9 samples.

Results

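The 5 genes described here encode the main cellulose-degrading enzymes of *Trichoderma reesei* RUT-C30 and were followed over 9 cultures, out of 9849 genes in the count table. They are a family 7 glycoside hydrolase (GH7, M419DRAFT_125125) and a family 6 glycoside hydrolase (GH6, M419DRAFT_122470), both cellobiohydrolases, a lytic polysaccharide monooxygenase of auxiliary activity family 9 (AA9, M419DRAFT_122518), and the endoglucanases of families GH5_5 (M419DRAFT_72489) and GH12 (M419DRAFT_124438). All 5 were found in the table and all 5 passed the filter on low counts. They were selected on measured values of these same libraries, but which values these were is not given. They were taken here to be the levels and the differences from glucose, which are therefore a description, with no test. The difference between the necromass types was tested on that assumption, and the test is not independent of the choice if that difference was used as well.

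All cultures were of RUT-C30, whose *cre1* gene is truncated, so that the carbon catabolite repression which glucose exerts on cellulase genes in the wild type is relieved. Each culture grew for 7 days in Highley's medium with 1% (w/v) glucose, 0.45% (w/v) low melanin necromass or 0.45% (w/v) high melanin necromass of the Ascomycete *Hyaloscypha bicolor*, with 3 replicate flasks per substrate. Each necromass type was 1 bulk harvest, so replicates share their substrate. The *H. bicolor* cultures that gave the 2 types differed in medium volume and shaking speed as well as in melanin. By the paper's pyrolysis measurements, high melanin necromass also held relatively less sugar and more nitrogen-containing and unspecified components than low melanin necromass. All RNA was extracted on the same day and sequenced as poly(A) libraries, and total counts ranged from 18074631 to 24635281 per library.

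Cellulose is a crystalline polymer of β-1,4-linked glucose, and its breakdown takes several enzymes that act together. Endoglucanases cut within the chains, cellobiohydrolases release cellobiose from the chain ends, AA9 monooxygenases cleave chains at the crystal surface by oxidation, and β-glucosidases split cellobiose into glucose. In *T. reesei* the cellobiohydrolases are the most abundant secreted proteins on cellulose, and cellulase genes are known to be transcribed together under shared regulators. Many of these enzymes carry a family 1 carbohydrate-binding module (CBM1), a small domain that binds cellulose. Among the 5 genes, the annotation gives a CBM1 to GH7, GH6 and GH5_5 and none to AA9 or GH12. The glucans of fungal cell walls are mainly β-1,3-, β-1,6- and α-1,3-linked.

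On necromass the 5 genes took a large part of all counts. Together they held 17.5%, 21.6% and 18.3% of the counts in low melanin replicates 1, 2 and 3, and 28.1%, 25.2% and 29.5% in the high melanin replicates. On glucose they held 0.0699%, 0.0600% and 0.0410%. Every high melanin library was thus above every low melanin library, and every glucose library was far below both. The mean was 27.6% ± 2.21 (SD, n = 3) on high and 19.2% ± 2.20 on low melanin necromass, 1.44 times as much on the former. The exact two-sided permutation test gave p = 0.10, the smallest value that 3 libraries against 3 allow. Shares of library counts did not overlap between the necromass types for 51.8% of all 9312 genes tested, so the separation by itself is common. At this depth the 95% Wilson interval of the share in low melanin replicate 1 ran from 17.45% to 17.49%, which covers counting error only.

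**Figure D1:**
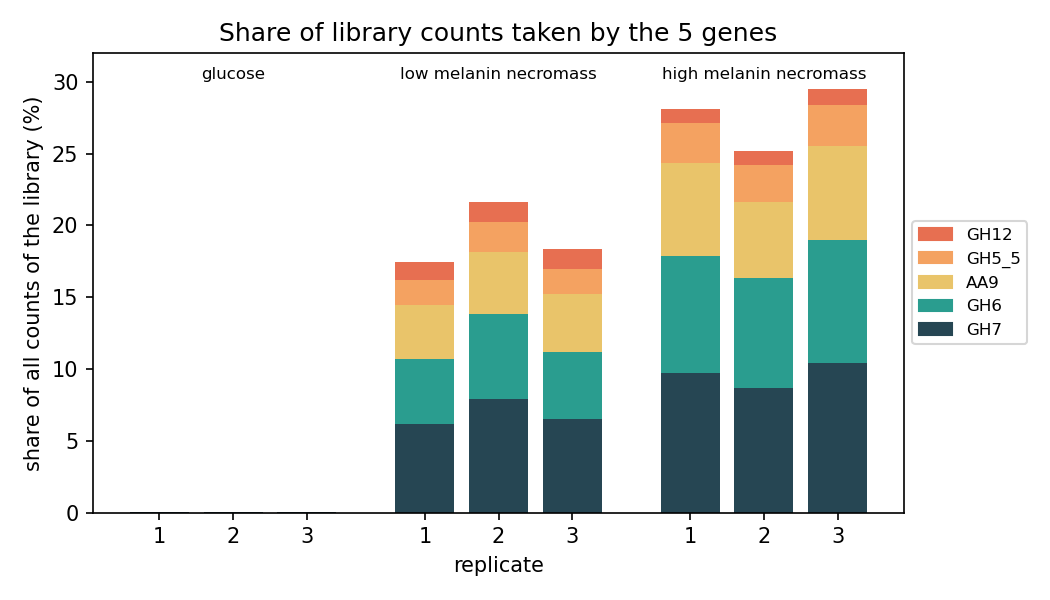
Stacked bars of the share of all counts of a library (%) taken by each of the 5 genes, for the 3 replicates of each substrate. The sum lies between 17.5% and 21.6% on low melanin necromass and between 25.2% and 29.5% on high melanin necromass, and at 0.0699% or less on glucose.

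The GH7 cellobiohydrolase was the gene with the most counts in all 6 necromass libraries. Levels are given as CPM, counts scaled to a common library size, after TMM normalisation, which scales each library so that most genes keep the same level. GH7 stood at 58539, 79185 and 63604 CPM in low melanin replicates 1, 2 and 3 and at 102208, 88171 and 113099 CPM in the high melanin replicates. On glucose it stood at 226.8, 226.1 and 153.6 CPM. The necromass types did not overlap, and the nearest libraries were low melanin replicate 2 and high melanin replicate 2. Its share of all counts averaged 6.87% ± 0.933 on low and 9.58% ± 0.882 on high melanin necromass (SD, n = 3).

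GH6, the other cellobiohydrolase, had rank 2 in all 6 necromass libraries. It stood at 43266, 58749 and 45264 CPM on low melanin necromass and at 86590, 78336 and 93470 CPM on high melanin necromass. On glucose the values were 166.3, 155.3 and 103.1 CPM. Among the 5 genes GH6 had the widest gap between the necromass types, with the lowest high melanin library well above the highest low melanin library. 

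The AA9 monooxygenase, a copper enzyme that opens crystalline cellulose to the hydrolases, had rank 3 in all 6 necromass libraries. Its levels were 35636, 43058 and 39190 CPM on low melanin necromass, 67832, 53946 and 71021 CPM on high melanin necromass and 132.4, 127.0 and 87.4 CPM on glucose. Here too the libraries of the 2 necromass types did not overlap.

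The endoglucanases had fewer counts. GH5_5 stood at 16565, 21016 and 17404 CPM on low melanin necromass, at 29383, 25910 and 31164 CPM on high melanin necromass and at 63.3, 62.9 and 42.1 CPM on glucose. Among all genes it had rank 4 in every high melanin library and rank 6, 5 and 6 in the low melanin replicates. GH12 stood at 12010, 14150 and 13278 CPM on low melanin necromass and at 10302, 10194 and 11878 CPM on high melanin necromass, so it was the only one of the 5 that was lower in every high melanin library, with a narrow gap between 11878 and 12010 CPM. Its glucose levels were 36.2, 42.6 and 28.6 CPM. GH12 had rank 7 in all 6 necromass libraries.

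**Figure D2:**
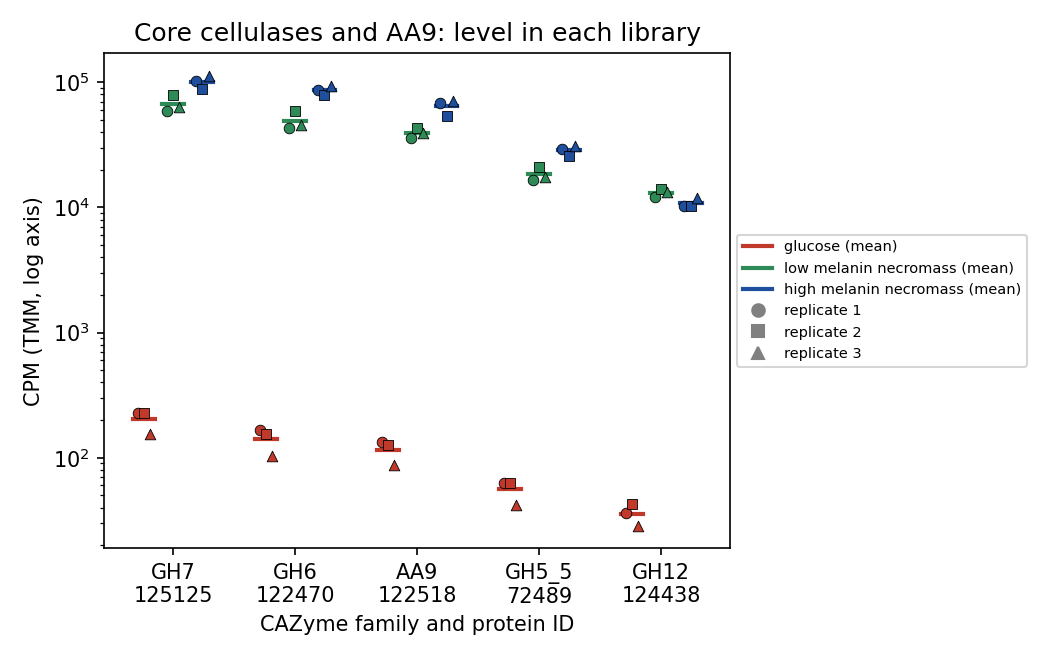
Level of each of the 5 genes in each library, in TMM-normalised CPM on a log axis. Symbols are replicates, colours are substrates and horizontal lines are means. GH7, GH6, AA9 and GH5_5 are highest in the high melanin libraries, GH12 is highest in the low melanin libraries, and all 5 lie between 28.6 and 226.8 CPM on glucose.

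The order of the 5 genes by count was GH7, GH6, AA9, GH5_5 and GH12 in all 9 libraries, glucose included. No gene lengths were used here, so this is an order of counts and not of transcripts per length. The ranges of GH7 and GH6 overlapped on each substrate, on low melanin necromass only at the edge (58539 and 58749 CPM), so their order rests on the comparison within each library. On both necromass types the ranges of GH6, AA9, GH5_5 and GH12 did not overlap between neighbours. On glucose those of GH6 and AA9 and of GH5_5 and GH12 did. The other genes among the 7 with the most counts were seen only after their values were known. They were M419DRAFT_109243, annotated as a sugar transporter, in all 6 necromass libraries, with M419DRAFT_124811 in the low melanin libraries and high melanin replicate 3 and the AA9 gene M419DRAFT_139633 in high melanin replicates 1 and 2.

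Within each substrate the 5 genes had the same highest or lowest flask. Among the low melanin libraries replicate 2 was the highest for all 5 genes. Among the high melanin libraries replicate 2 was the lowest and replicate 3 the highest for all 5, and among the glucose libraries replicate 3 was the lowest for all 5. This was not particular to them, as the AA9 gene M419DRAFT_139633 had the same extremes. The GH45 gene M419DRAFT_25940 had those of low melanin necromass and glucose but not those of high melanin necromass. How many of all genes had them was not counted. The coefficient of variation of a gene ranged from 8.18% (GH12) to 17.2% (GH6) on low melanin necromass, from 8.73% (GH12) to 14.1% (AA9) on high melanin necromass and from 19.6% (GH12) to 23.9% (GH6) on glucose.

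To ask whether cellulase levels differed between the necromass types, the high melanin cultures were compared with the low melanin cultures. The types differed in more than melanin, so its part cannot be told apart. The comparison used edgeR's quasi-likelihood fit of all 9 libraries, with p values adjusted over all 9312 genes by the Benjamini-Hochberg method. Calls were made where the adjusted p was under 0.05. GH6 was higher on high melanin necromass by a log2 fold change of 0.81 (SE 0.28, 95% interval 0.19 to 1.43, adjusted p = 0.10). AA9 was higher by 0.71 (SE 0.26, interval 0.13 to 1.29, adjusted p = 0.119), GH5_5 by 0.65 (SE 0.23, interval 0.13 to 1.18, adjusted p = 0.114) and GH7 by 0.59 (SE 0.28, interval -0.03 to 1.21, adjusted p = 0.216). GH12 had a log2 fold change of -0.28 (SE 0.20, interval -0.73 to 0.16, adjusted p = 0.407).

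None of the 5 genes was therefore called in edgeR's fit of all libraries, in which 9.19% of all genes were called, 5.26% as higher and 3.93% as lower. At an unadjusted p under 0.05 GH6, AA9 and GH5_5 passed, where 25.7% of all genes passed and 14% passed as higher. DESeq2, the tool that the paper used, was also run on the deposited counts. It called GH7, GH6, AA9 and GH5_5 higher, with adjusted p values of 0.0252, 0.00150, 0.00308 and 0.00627, where it called 15.4% of all genes, 8.64% as higher. None of the 5 reached the log2 fold change of 2 that the paper also required for its calls. With edgeR fitted to the 6 necromass libraries alone, GH6 (adjusted p = 0.0292), AA9 (0.0373) and GH5_5 (0.0276) were called and GH7 was not (0.0981), and 31.7% of all genes were called, 16.7% as higher. Without glucose replicate 1, GH6, AA9 and GH5_5 were called at adjusted p values of 0.0369, 0.0472 and 0.0418, and here too more of all genes were called (25.6%, with 13.7% as higher). None of the 5 was called without glucose replicate 2, where GH6, AA9 and GH5_5 had adjusted p values of 0.149, 0.165 and 0.144, or without glucose replicate 3 (0.0698, 0.0839 and 0.0696). Levels that did not overlap were common, with 24.7% of all genes higher and 24.1% lower in every high melanin library.

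**Figure D3:**
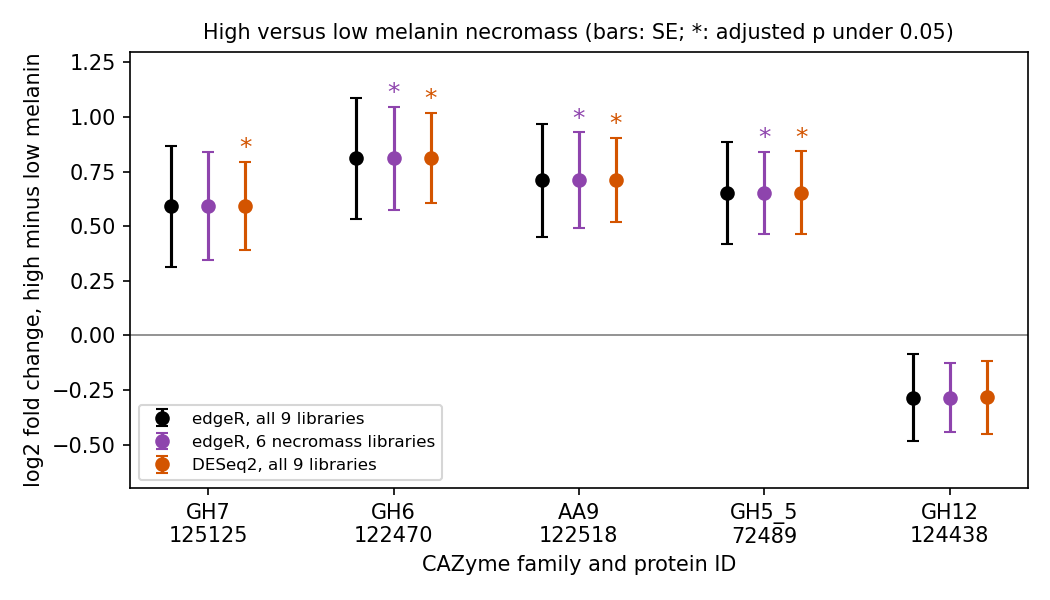
Log2 fold change of each gene, high minus low melanin necromass, with standard errors, from edgeR on all 9 libraries, edgeR on the 6 necromass libraries and DESeq2 on all 9 libraries. Stars mark an adjusted p under 0.05. The values of a gene nearly coincide between fits, from 0.59 to 0.81 for GH7, GH6, AA9 and GH5_5 and at -0.28 for GH12, and no star belongs to the first fit.

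The ratio of 2 genes within a library does not depend on the normalisation, and the 10 ratios among the 5 genes were compared between the necromass types. GH12 stood apart. The ratio of GH7 to GH12 counts was 4.87, 5.60 and 4.79 on low and 9.92, 8.65 and 9.52 on high melanin necromass. On glucose it was 6.26, 5.30 and 5.37. That of GH6 to GH12 was 3.60, 4.15 and 3.41 on low and 8.41, 7.68 and 7.87 on high melanin necromass. All 4 ratios with GH12 were larger in every high melanin library, by 0.88 (GH7), 0.94 (GH5_5), 0.99 (AA9) and 1.11 (GH6) on the log2 scale. Among the 5 genes GH12 held 7.07% ± 0.464 of the counts on low and 3.72% ± 0.249 on high melanin necromass (SD, n = 3).

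The other 6 ratios differed by at most 0.22. GH7 to GH6 was 1.35, 1.35 and 1.41 on low and 1.18, 1.13 and 1.21 on high melanin necromass, so both cellobiohydrolases came closer to each other by 0.22 on the log2 scale. GH6 to GH5_5 was larger on high melanin necromass by 0.16, with no overlap. GH7 to AA9, GH7 to GH5_5, GH6 to AA9 and AA9 to GH5_5 overlapped, with differences of -0.11, -0.06, 0.12 and 0.05. GH5_5 kept close to GH7 in all libraries, with GH7 between 3.40 and 3.77 times its count.

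In all, 6 of the 10 ratios did not overlap between the necromass types, beside 68.3% of the 124750 pairs of the 500 genes with the highest levels on necromass. The exact two-sided permutation test gave p = 0.10 for each of the 6, the smallest value possible, and an adjusted p of 0.167 over the 10 pairs. Over the 124750 pairs the median absolute difference was 0.52, and 25.9% differed by more than the smallest GH12 ratio. The differences among GH7, GH6, AA9 and GH5_5 thus lay below the median pair and those with GH12 above it.

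**Figure D4:**
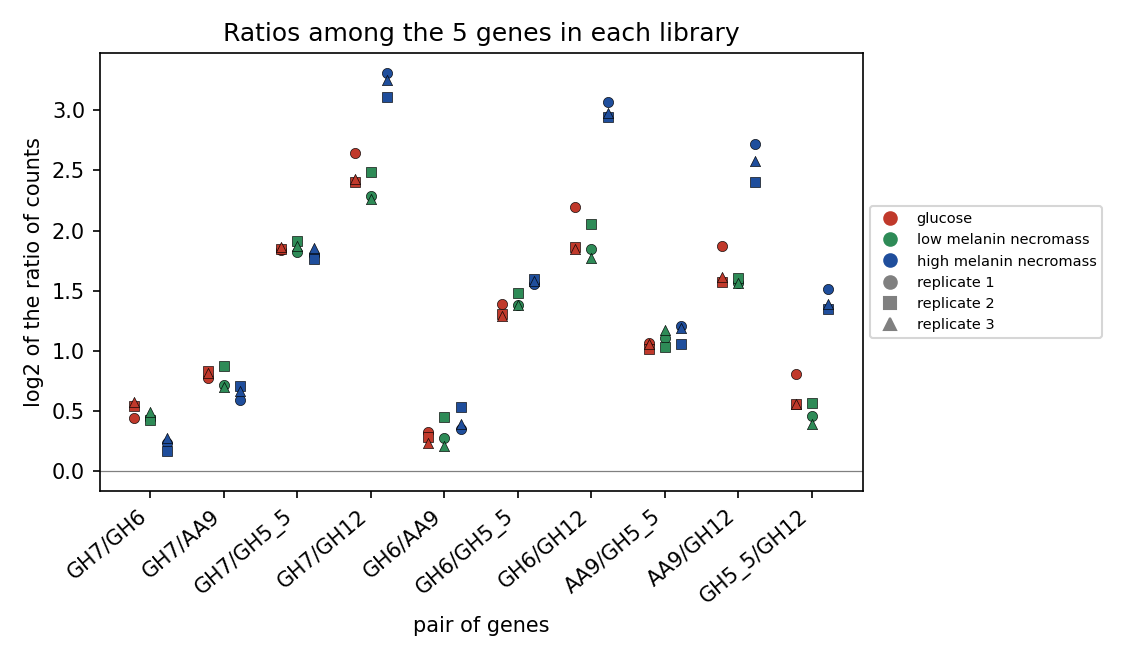
Log2 of the ratio of counts for the 10 pairs of genes, for each library. Colours are substrates and symbols are replicates. The 4 pairs with GH12 are 0.88 to 1.11 higher in the high melanin than in the low melanin libraries, the other 6 pairs differ by at most 0.22, and the glucose libraries lie near the low melanin libraries.

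Against glucose the 5 genes were far higher on both necromass types. On low melanin necromass the log2 fold changes lay close together, at 8.37 for GH7, 8.44 for GH6, 8.41 for AA9, 8.35 for GH5_5 and 8.52 for GH12. On high melanin necromass they were 8.97 for GH7, 9.25 for GH6, 9.12 for AA9, 9.0 for GH5_5 and 8.23 for GH12. The 2 comparisons share the 3 glucose libraries. The paper cautions that with this strain glucose and necromass cultures could have been compared at different phases of growth, which was not tested here. No test of the 5 genes is given for either comparison, because their choice was taken to rest on these differences. So did 12% (low melanin) and 13.5% (high melanin) of all genes in the upward direction, and the choice of the 5 genes fixes their result.

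The levels on glucose were a similar share of those on low melanin necromass for all 5 genes. The mean glucose level was 0.272% of the mean low melanin level for GH12, 0.288% for GH6, 0.294% for AA9, 0.301% for GH7 and 0.306% for GH5_5. Among the 77 genes that reached 1000 CPM on low melanin necromass, whose median share was 34.2%, these were 5 of the 10 lowest. The other 5 of these 10 also lay within the range of the 5 genes, from 0.289% to 0.305%. They were seen only after their values were known and were M419DRAFT_114133 (AA3_3), M419DRAFT_25940 (GH45), M419DRAFT_23616 (GH10), M419DRAFT_121449 (CBM1) and M419DRAFT_125575 (CE15). With the limit lowered to 100 CPM, only M419DRAFT_45640 and M419DRAFT_72410 out of 1668 genes had a lower share than GH12, down to 0.207%. Against high melanin necromass the shares were farther apart, at 0.164% for GH6, 0.180% for AA9, 0.195% for GH5_5, 0.20% for GH7 and 0.332% for GH12. There 4 of the 5 were among the 10 lowest of 68 genes and GH12 had rank 14 from the lowest, and 9 other genes lay below GH12, down to 0.0729%.

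The share of low melanin levels was lowest in glucose replicate 3 for each of the 5 genes. It averaged 0.327%, 0.329% and 0.222% over the 5 genes in glucose replicates 1, 2 and 3, and 0.365%, 0.361% and 0.253% over the 10 other genes with the lowest shares. Replicates 1 and 2 were not ordered alike, with GH12 at 0.276% and 0.324% and GH6 at 0.339% and 0.316%. The proportions among the 5 genes in each glucose library were nearer to those on low than on high melanin necromass. The root mean square difference over the 5 genes, on the log2 scale and after centring, was 0.124, 0.0430 and 0.0478 to the low melanin mean and 0.279, 0.395 and 0.394 to the high melanin mean, where the 2 necromass means differed by 0.399. Whether these glucose counts came from transcripts of the glucose cultures or from the necromass libraries was not tested. The fold changes against glucose, and the order of the genes on glucose, are limited by this.

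**Figure D5:**
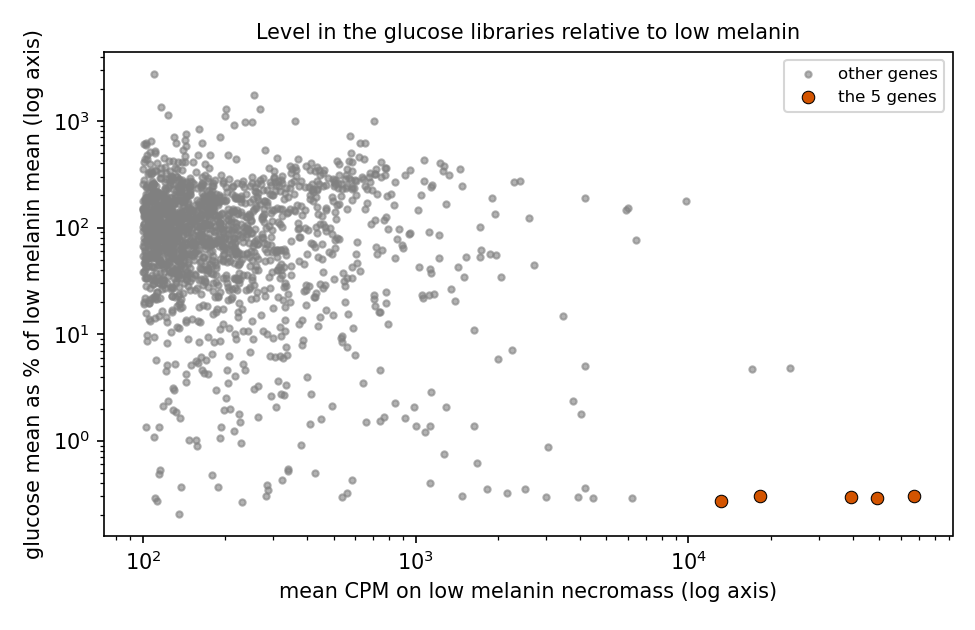
Mean level in the glucose libraries as a percentage of the mean level on low melanin necromass, against the low melanin level, for the 1668 genes that reached 100 CPM there. Both axes are log axes. The 5 genes lie between 0.272% and 0.306%, along the lower edge of all genes.

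Other cellulase and AA9 genes were those of families GH7, GH6, GH12, GH45, GH5_5 and AA9 in the study's annotation. That annotation covers only genes which the study called on these same samples, so counts of its genes are not independent evidence of a direction. There were 4 such genes, and 1 of them rose on high versus low melanin necromass, where 5.26% of all genes were called higher and 3.93% lower. The AA9 gene M419DRAFT_139633, which unlike M419DRAFT_122518 carries a CBM1, stood at 3838, 5107 and 3613 CPM on low melanin necromass and, in the high melanin replicates, at 11491, 10468 and 11589 CPM. There was no overlap, beside 24.7% of all genes that were higher in every high melanin library. The difference in edgeR's fit was 1.42 on the log2 scale (SE 0.23, Benjamini-Hochberg adjusted p = 0.00668).

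The GH45 endoglucanase M419DRAFT_25940 averaged 6199 ± 1242 CPM with low and 9748 ± 371 CPM with high melanin necromass, which was not a called difference (0.65 on the log2 scale, SE 0.22, edgeR adjusted p = 0.0935). It was called higher in 4 of the 17 alternative fits described below. The second GH7 gene, M419DRAFT_5304, had means of 2167 and 2089 CPM and a change of -0.05 (SE 0.17, adjusted p = 0.880). The second GH12 gene, M419DRAFT_97721, ran the other way from the rest. It averaged 499 ± 124 CPM on glucose, 60.7 ± 3.88 CPM with low and 44.9 ± 2.40 CPM with high melanin necromass. Against glucose its log2 fold changes were -3.04 and -3.47. These are a description only, because the annotation holds only genes that the study called. Both GH12 genes were thus lower in every high melanin library than in every low melanin library, with adjusted p values of 0.407 and 0.129 for M419DRAFT_124438 and M419DRAFT_97721. Of the 17 alternatives, 2 called M419DRAFT_97721 lower and none called M419DRAFT_124438. Of all genes tested, 24.1% were lower in every high melanin library.

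A further 9 annotated genes carry a CBM1. On high versus low melanin necromass 5 of them rose and none fell, with a median log2 fold change of 0.56 next to -0.01 over all genes tested, of which 5.26% were called higher and 3.93% lower. This list too holds only genes that the study called. The 5 include M419DRAFT_104468 and M419DRAFT_86290, which passed the count filter only through the high melanin libraries. The count of 5 is therefore no evidence of a direction. M419DRAFT_125575 (CE15, a family of glucuronoyl esterases) rose from 1485 ± 275 to 3500 ± 223 CPM, by 1.24 on the log2 scale (SE 0.22, adjusted p = 0.00921). This call was lost without low melanin replicate 1 (adjusted p = 0.0549) or 3 (0.0525). M419DRAFT_139631 (CE5, a family with acetyl xylan esterases) rose from 283 ± 6.73 to 399 ± 27.5 CPM, by 0.49 (SE 0.10, adjusted p = 0.0171). This call was lost in 5 of the 6 fits without a necromass library and held in only 10 of the 17 alternatives.

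The remaining 3 that rose were the GH18 genes M419DRAFT_133349, M419DRAFT_104468 and M419DRAFT_86290. GH18 is a family of chitinases, which act on chitin and not on cellulose. Their levels were low, with means of 3.49, 0.158 and 0.141 CPM for low and 31.5, 2.08 and 2.78 CPM for high melanin necromass. They rose by 3.17, 3.64 and 4.22 on the log2 scale, with adjusted p values of 0.00983, 0.00388 and 0.00426 by edgeR. M419DRAFT_104468 and M419DRAFT_86290 passed the count filter only through the high melanin libraries. They could thus enter the test only by being higher there, so their p values are no evidence of a rise. The call of M419DRAFT_133349 was lost without low melanin replicate 1 (adjusted p = 0.0540) or 3 (0.0628).

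The other 4 genes with a CBM1 did not pass the test. M419DRAFT_104220 (EXPN, expansin-like proteins that loosen cellulose) averaged 3771 ± 864 CPM with low and 5569 ± 1017 CPM with high melanin necromass, without overlap. Its log2 fold change was 0.56 (SE 0.32, edgeR adjusted p = 0.308). M419DRAFT_121449, with a CBM1 and no other family tag, averaged 3927 and 5235 CPM, also without overlap. M419DRAFT_122377 (GH5_7, a family of β-mannanases) averaged 537 and 571 CPM, with overlap. M419DRAFT_111943 (GH74, a family of xyloglucanases) was, like GH12, lower in every high melanin library, with means of 3043 and 1909 CPM (log2 fold change -0.67, SE 0.20, adjusted p = 0.0654). It was called lower in 3 of the 17 alternatives. Of all genes tested, 24.7% were higher and 24.1% lower in every high melanin library.

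Families GH1 and GH3, which include the β-glucosidases, had 10 genes in the same annotation of called genes. On high versus low melanin necromass 3 rose and none fell (5.26% and 3.93% of all genes), with a median log2 fold change of 0.33. The gene with the highest level, M419DRAFT_127115 (GH1), had means of 4173 and 4378 CPM (log2 fold change 0.07, SE 0.61, adjusted p = 0.954). Its glucose libraries were far apart, at 35.9, 222 and 375 CPM. Of 11 genes of that annotation in families that act on xylan, 2 rose and none fell (against the same 5.26% and 3.93%), with a median of 0.45, and the gene with the highest level, M419DRAFT_23616 (GH10, a family of endoxylanases), had means of 2998 and 3027 CPM (0.01, SE 0.19, adjusted p = 0.972).

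The genes whose pattern was most like the mean of the 5 genes were sought among all genes tested, by the root mean square difference of centred log2 CPM over the 9 libraries. The nearest were M419DRAFT_121449 (CBM1) at 0.0888, M419DRAFT_25940 (GH45) at 0.128, M419DRAFT_136547 (GH3) at 0.182, M419DRAFT_124931 (GH11) at 0.202 and M419DRAFT_23616 (GH10) at 0.261. The 5 genes themselves lay at 0.0485 (GH7), 0.0665 (GH5_5), 0.107 (AA9), 0.165 (GH6) and 0.359 (GH12) from their mean, so GH12 was farther from it than each of these 5 other genes. Of all pairs among the 5, GH7 and GH5_5 were the closest, at 0.0401, and GH6 and GH12 the farthest apart, at 0.521.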

How the data were processed

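RNA from 9 cultures, 3 per substrate, was measured. The authors trimmed paired-end reads with CHURP, quantified them with kallisto version 0.48.0 against the RUT-C30 cDNA of Ensembl Fungi and deposited estimated counts per gene in whole numbers, not scaled for library size. kallisto divides reads shared by similar transcripts by estimation, so the split of reads between near-identical genes rests on it. All 13 values of 1000000 or more end in 0, so they carry 6 significant digits. No per-length values were formed, and no authors' fold changes were used.

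The filter kept 9312 genes, those that reached 10 counts in 3 or more libraries. In R version 4.3.3, edgeR version 4.0.16 was run with TMM factors and 3 substrates as groups. Shares and ratios were compared by exact two-sided permutation tests (scipy version 1.17.1). Log2 CPM profiles had a pseudocount of 0.5. Plots used matplotlib version 3.10.9. Replicates are separate flasks.

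Alternatives were DESeq2 version 1.42.0, RLE or upper-quartile factors, library totals only, the 5 genes left out of totals and factors, no filter, only the groups compared, blocking on the replicate number, and leaving out single libraries. Named were the 5 genes, the annotated cellulase, AA9 and CBM1 genes, the gene with the highest level of each other list and the 5 genes of nearest pattern. The 5 genes and the lists were chosen with earlier results of these data known.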

Additional observations from a re-analysis of the deposited data

How the results depend on the processing

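Under all 17 alternatives GH7, GH6, AA9 and GH5_5 were higher and GH12 lower on high than on low melanin necromass. The log2 fold change ranged from 0.48 to 0.72 for GH7, 0.70 to 0.95 for GH6, 0.60 to 0.83 for AA9, 0.54 to 0.75 for GH5_5 and -0.40 to -0.24 for GH12, and with single libraries left out from 0.49 to 0.72, 0.73 to 0.95, 0.62 to 0.83, 0.58 to 0.75 and -0.37 to -0.24. Adjusted p values ran from 0.0252 to 0.485, 0.00150 to 0.303, 0.00308 to 0.329, 0.00627 to 0.324 and 0.192 to 0.636. The calls gained were those of DESeq2 (0.59, 0.81, 0.71 and 0.65 for GH7, GH6, AA9 and GH5_5), of the 6 necromass libraries alone (0.81, 0.71 and 0.65 for GH6, AA9 and GH5_5) and of the fit without glucose replicate 1 (0.81, 0.71 and 0.65).

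Between the necromass types 856 genes were called at an adjusted p under 0.05. That number was 1428 with DESeq2, 2909 with only the groups compared and 551 with the replicate block, and 257 to 2371 with a library left out. With the fold threshold as well, 51 to 106 genes were called with a library left out, against 81. The block called none of the 5 genes. Correlations ran from -0.205 to 0.117 between same-numbered libraries and from -0.318 to 0.315 between differently numbered ones. No pairing by number was seen, but so few libraries cannot exclude one. With library totals only, 315 genes were called higher and 511 lower, against 490 and 366, and the median of all genes moved from -0.01 to -0.13.

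Per 100 counts of all other genes, in place of the share of all counts, the 5 genes differed by 14.4 (GH7 4.74, GH6 5.06, AA9 3.44, GH5_5 1.45, GH12 -0.25), against a difference of 8.43 percentage points. With a library left out, that difference ranged from 7.48 to 9.68.

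Changes near 0 turned sign. These were M419DRAFT_122377 (-0.022), M419DRAFT_127115 (-0.037) and M419DRAFT_23616 (-0.10) with library totals only, and, without a single library, M419DRAFT_122377 (-0.053 to 0.27), M419DRAFT_127115 (-0.073 to 0.20), M419DRAFT_23616 (-0.10 to 0.088) and M419DRAFT_5304 (-0.19 to 0.056). The cause was not tested.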
